A study of Mus musculus with 4 samples.

Results

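Elf3, Elf5, Ehf and Spdef are the epithelium-restricted members of the ETS family of transcription factors. Their expression was followed in the fetal mouse kidney through every probe set that the platform table assigned to 1 of these gene symbols. The rule gave 8 probe sets of 4 genes, out of 45037 probe sets in all. Ehf had 4 probe sets, Elf5 had 2, and Elf3 and Spdef had 1 each. RNA came from structures cut by laser from stained frozen sections of wild-type CD-1 kidneys at embryonic stage E15.5 (Theiler stage 23). A single array, which the labels number 3, measured the cortical collecting duct, a branch of the urine-collecting tree that arises from the ureteric bud. Another 3 arrays, numbered 1 to 3, measured the loop of Henle anlage, the part of the young nephron that lengthens into the loop. For every array some 50 sections of 5 kidneys had been pooled, the sex of the fetuses was not known, and the RNA had gone through 2 rounds of amplification. The labels do not say whether pools shared kidneys or litters, so the spread between arrays may be partly technical.

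ETS proteins bind DNA through a shared winged helix-turn-helix domain that reads a GGAA core. Most of the family is expressed in many tissues or in blood and vessels. Elf3, Elf5 and Ehf form an epithelial subgroup, also called ESE factors, and Spdef stands apart as the prostate-derived, goblet-cell type of factor. Elf5 directs the milk-secreting cell fate in the mammary gland and is known as a transcription factor of principal cells, the water- and sodium-reabsorbing cells of the collecting duct. Ehf is known from airway, prostate and other glandular epithelia, and Elf3 from gut and bladder lining and from the epithelial response to inflammation.

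The set of promoter windows used (RefSeq, build GRCm38.p6) held 4 starts for 3 of the members: 2 for Elf5 and 1 each for Elf3 and Spdef. Ehf had no entry in that set, although RefSeq lists the gene. The 250 bases before a start are shown for Elf5, the member that differed most between the structures, and for Elf3, the tested member that differed least. Capitals mark GGAA on either strand, so that TTCC is a match on the other strand. The first Elf5 window lies at chr2:103411848-103412097 and the second at chr2:103423818-103424067, both on the + strand, and the Elf3 window at chr1:135258473-135258722 on the - strand.
Elf5 first start: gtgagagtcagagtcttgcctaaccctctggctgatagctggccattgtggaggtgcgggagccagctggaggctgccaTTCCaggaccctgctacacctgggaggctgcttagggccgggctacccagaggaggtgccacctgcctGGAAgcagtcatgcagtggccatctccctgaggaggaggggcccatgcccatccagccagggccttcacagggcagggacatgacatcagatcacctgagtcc
Elf5 second start: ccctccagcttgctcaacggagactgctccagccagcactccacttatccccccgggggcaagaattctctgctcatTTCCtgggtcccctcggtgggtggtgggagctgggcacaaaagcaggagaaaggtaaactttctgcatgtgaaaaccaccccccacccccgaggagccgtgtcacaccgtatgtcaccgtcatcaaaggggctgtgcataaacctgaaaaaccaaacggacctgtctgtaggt
Elf3 start: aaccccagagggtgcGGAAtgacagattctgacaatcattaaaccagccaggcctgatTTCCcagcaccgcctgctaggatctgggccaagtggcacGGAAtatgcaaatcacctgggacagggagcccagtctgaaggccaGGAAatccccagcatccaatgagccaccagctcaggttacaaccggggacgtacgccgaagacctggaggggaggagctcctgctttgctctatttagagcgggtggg
The first Elf5 window held 2 GGAA matches, the second 1, and the Elf3 window 4. The Spdef window, at chr17:27728952-27729201 on the - strand, also held 4. Such matches were common: 93.5% of 32851 promoter windows of the same length held at least 1, with a median of 3. The longer form AGGAAG, which contains GGAA, was found in the Spdef window (1 match) and in neither Elf5 window nor the Elf3 window, against 29.5% of all windows. GATAA was found once, in the second Elf5 window, against 22.6% of all windows. AACCNGTT and TATAAA were in none of the 4 windows, and 1.79% and 12.4% of all windows held them. All motifs were searched on both strands, and a match is a description of the letters only.

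The arrays differed within the anlage in a ratio that is used as a sign of RNA quality. Gapdh signal at the 3' end over that at the 5' end, a ratio that is larger in shortened RNA, was 12.05 for the collecting duct and 10.25, 54.1 and 26.0 for anlage arrays 1 to 3. Whether the captured RNA or its 2 rounds of amplification gave these ratios was not tested. The labelled structures carried their own markers. All 13 collecting duct markers were tested and higher in value in the duct, 11 of them above all 3 anlage arrays. All 12 markers of the loop and thick limb lay below all 3. Of all tested genes, 17.3% lay above and 24.3% below all 3. The marker lists were chosen with earlier results of these data known, so these counts are no independent check of the labels. Summed signal of the collecting duct markers was 103074 in the duct and 14401, 48283 and 10926 in anlage arrays 1 to 3, while that of the loop markers was 6647 against 133816, 36921 and 108542. Calb1, a calcium-binding protein, gave 31987.88 of the sum in array 2, and without it (a choice made after seeing the data) the sums were 89099 against 11552, 16296 and 8588. No marker was listed at 0. Lower signal in bulk tissue cannot tell fewer cells of a type from less RNA per cell.

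Elf5 had the largest difference of the members. Its brighter probe set, 1419555_at, gave a deposited signal of 21792.68 in the collecting duct and of 1438.43, 2798.80 and 472.97 in the anlage, here and below in the order of arrays 1, 2 and 3. The collecting duct signal was therefore 7.79 times the highest anlage signal and 46.1 times the lowest, and the anlage arrays themselves spanned 5.92-fold. The place of this probe set in the ranking of all 45037 probe sets, which no scaling of an array can move, was the 98.1 percentile in the collecting duct array and the 72.1, 84.3 and 56.8 percentiles in the anlage arrays. After quantile normalization, on a log2(signal + 109.6) scale, Elf5 stood at 14.50 in the collecting duct and at 10.36, 11.54 and 9.28 in the anlage arrays (mean 10.40 ± 1.13, SD, n = 3). The groups did not overlap, and the smallest gap, to anlage array 2, was 2.96. The offset of 109.6 makes folds of dim genes look smaller than they are.

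In the limma fit over all 12642 tested genes, the difference of Elf5 was 4.11 ± 0.90 (SE), with a 95% interval from 1.91 to 6.31. Its unadjusted limma p was 0.00379 and the adjusted p 0.9999, so Elf5 did not pass the threshold of 0.05. Only 2 tested genes had a larger difference. No gene passed in either direction in this fit: limma called 0 of 12642 higher (0%) and 0 lower (0%). At an unadjusted p under 0.05, 149 genes were higher, which is 1.18%, and 282 lower, which is 2.23%. Without anlage array 2, the one with the highest Gapdh ratio and the strongest collecting duct markers among the anlage, limma called 3 genes higher and 11 lower. Elf5 was among them, with a difference of 4.48 and an adjusted p of 0.0304. That refit drew its spread from anlage arrays 1 and 3 alone. In the other settings the lowest adjusted p of Elf5 was 0.301, without anlage array 1.

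The second probe set of Elf5, 1419556_at, was dim. It read 457.92 in the duct and 22.72, 42.78 and 38.27 in the anlage arrays, again with no overlap and a signal 10.7 times the highest anlage value. On the offset log2 scale its difference was 1.78, from 9.04 against 7.25 ± 0.32 (SD, n = 3). Both probe sets thus were brighter in the duct than in each anlage array. Averaging them lowered the difference of Elf5 to 2.95.

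**Figure D1:**
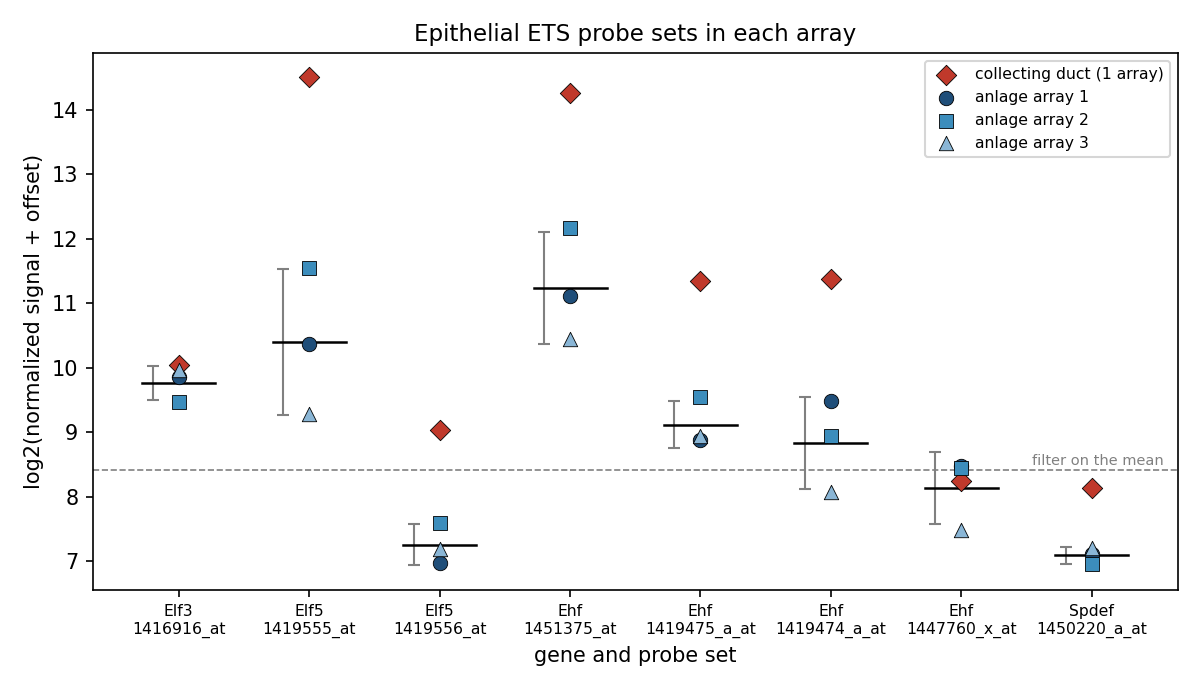
Log2(normalized signal + offset) of the 8 probe sets (x axis, gene and probe set) in each of the 4 arrays. Red diamonds are the 1 collecting duct array, blue symbols the 3 anlage arrays, black bars the anlage mean and grey bars its SD (n = 3), and the dashed line is the filter that a mean over 4 arrays had to reach. Elf5 1419555_at stands at 14.50 against at most 11.54 in the anlage, and Elf3 at 10.05 against at most 9.96.

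Ehf, the chromosomal neighbour of Elf5, had the second largest difference of the members. Its brightest probe set, 1451375_at, gave a deposited signal of 18345.99 in the duct and of 2259.28, 4727.42 and 1213.52 in the anlage arrays. The collecting duct signal was 3.88 times the highest anlage signal and 15.1 times the lowest, with no overlap. Its place in the ranking of probe sets was the 97.7 percentile against the 80.2, 89.2 and 73.1 percentiles. On the log2 scale Ehf stood at 14.25 in the collecting duct against 11.11, 12.17 and 10.44 (mean 11.24 ± 0.87, SD, n = 3). The limma difference was 3.01 ± 0.75 (SE), with a 95% interval from 1.17 to 4.86. Its unadjusted limma p was 0.00707 and the adjusted p 0.9999, and it passed in none of the settings tried, where the lowest adjusted p was 0.105. Of the tested genes, 17 had a larger difference.

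The other probe sets of Ehf did not all follow. Probe set 1419475_a_at read 2597.06 against 514.38, 403.57 and 354.88 in the anlage, a log2 difference of 2.23. Probe set 1419474_a_at read 2627.11 against 812.36, 214.74 and 157.09, a log2 difference of 2.54. In both, as in the brightest one, the collecting duct array lay above every anlage array. The fourth, 1447760_x_at, read 202.46 against 356.15, 128.94 and 72.35, so the collecting duct array lay within the anlage and the log2 difference was 0.12. Its name ends in _x, the maker's mark for a probe set that may also bind other transcripts, and its mean over the arrays was too low to pass the filter. The mean of the 4 probe sets of Ehf gave a difference of 1.97, against 3.01 for the brightest alone.

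Elf3 had a difference near 0. Its single probe set, 1416916_at, read 1040.24 in the duct and 1046.31, 374.38 and 829.69 in the anlage arrays. In deposited signal the collecting duct array thus lay just below anlage array 1 and above the others. After normalization it lay narrowly above all 3, at 10.05 against 9.86, 9.47 and 9.96 (mean 9.76 ± 0.26, SD, n = 3). The limma difference was 0.28 ± 0.53 (SE; adjusted p = 0.9999), and its 95% interval ran from -1.01 to 1.58. A difference of the size measured for Elf5 or Ehf thus lay outside that interval, while a difference of up to 1.58 did not. A larger difference than that of Elf3 was measured for 25.5% of tested genes.

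Spdef was dim in every array. Its probe set 1450220_a_at read 176.84 in the duct and 44.46, 7.79 and 39.15 in the anlage arrays, so that the collecting duct signal was 3.98 times the highest anlage signal. Its place in the ranking was the 33.1 percentile in the collecting duct and the 10.7, 4.87 and 12.9 percentiles in the anlage. On the log2 scale it stood at 8.13 against 7.12, 6.95 and 7.21 (mean 7.09 ± 0.13, SD, n = 3). The groups did not overlap, and the difference was 1.04. Genes were tested from a mean log2 value of 8.416 (the 40th percentile) upward, and the mean of Spdef was 7.35, so it was not tested. With the filter removed the difference of 1.04 had an SE of 0.30 and an adjusted limma p of 0.99996. Detection calls were not used here, so whether these signals exceeded background is unknown. The size of the difference followed the offset: it was 1.89 with the offset at the 10th percentile and 0.45 with the offset at the 50th.

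Of the 4 members, 3 passed the filter on low values, and for all 3 the normalized collecting duct value lay above every anlage array. The same held for 17.3% of all tested genes. In deposited signal 6 of the 8 probe sets lay above every anlage array, against 20.3% of all probe sets with 1 gene symbol, the exceptions being Elf3 and Ehf 1447760_x_at. The limma fit called 0 of the 3 tested members at the adjusted threshold and 2, Elf5 and Ehf, at an unadjusted p under 0.05. At that unadjusted level 1.18% of all tested genes were higher and 2.23% lower.

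**Figure D2:**
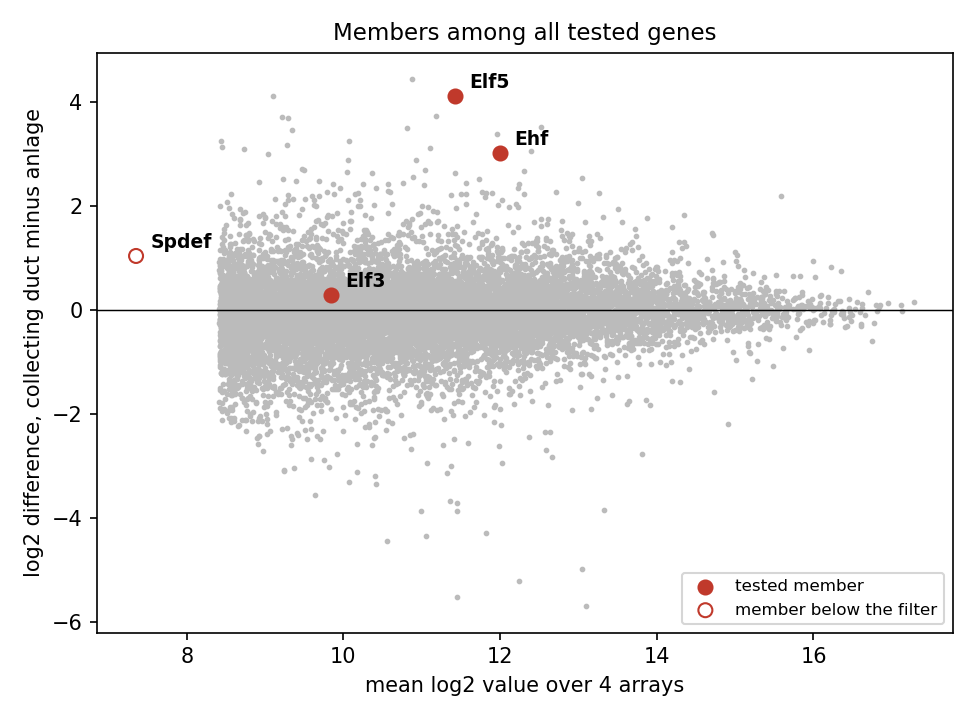
Log2 difference between the collecting duct array and the mean of the 3 anlage arrays (y axis) against the mean log2 value over the 4 arrays (x axis). Grey points are the 12642 tested genes, filled red points the tested members and the open red point Spdef, which lay below the filter. Elf5 (4.11) and Ehf (3.01) lie at the upper edge of the cloud and Elf3 (0.28) inside it.

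The members were also set against each other by their change within the same arrays, which cancels a constant scaling of a whole array apart from the offset. An array effect that depends on signal intensity does not cancel. In the duct Elf5 and Ehf ranked at the 98.1 and 97.7 percentiles and Elf3 at the 68.1 percentile. The difference of Elf5 exceeded that of Elf3 by 3.82 on the log2 scale, with an anlage SD of 1.38 for the Elf5 minus Elf3 value. That of Ehf exceeded Elf3 by 2.73 (anlage SD 1.13). That of Elf5 exceeded Ehf by 1.09, where the Elf5 minus Ehf value was steadier across the anlage (SD 0.28, n = 3). In each of the 3 pairs this value was higher in the duct than in any anlage array. An exact two-sided permutation test of 1 array against 3 gave p = 0.25 for each pair, also after Benjamini-Hochberg adjustment over the 3 pairs, and 0.25 is the smallest p this design can give.

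Within the anlage, Elf5 and Ehf, by their brightest probe sets, were both highest in array 2, next in array 1 and lowest in array 3. Not all their probe sets kept this order. Ehf 1419474_a_at stood at 9.48, 8.94 and 8.07 in arrays 1 to 3, and Elf5 1419556_at at 6.97, 7.60 and 7.20. Elf5 spanned 2.26 and Ehf 1.73 on the log2 scale across these arrays, whereas Elf3 spanned 0.50 and was lowest in array 2. The mean of the 13 collecting duct markers was 12.19 in the duct and 9.46, 10.62 and 9.56 in the anlage. There array 2 was again the highest, but array 3 lay above array 1, unlike in Elf5 and Ehf by their brightest probe sets. Without Calb1 the mean was 12.05 against 9.29, 10.27 and 9.42, in the same order. The order of arrays 1 and 3 is not firm, since summed signal of these markers was higher in array 1 (14401) than in array 3 (10926). Single markers went both ways: Krt19 stood at 8.28 in array 1 and 10.58 in array 3, and Gata3 at 11.95 and 10.46. The mean of the 12 loop markers, at 8.59 against 12.39, 11.04 and 12.15, was lowest within the anlage in array 2. How far a share of other cells in the captured material or RNA quality bears on the values of Elf5 and Ehf was not tested. Without array 2 the differences were 4.48 for Elf5 and 3.34 for Ehf, both larger than with it. Without array 3 they were 3.50 and 2.58.

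Markers of other epithelia in which these factors are known, namely urothelium, stomach, airway and squamous epithelium, were counted too. Of 10 such genes 5 passed the filter, 1 of them with a higher value in the duct and 4 with a lower one. Their summed signal was 2032 in the duct and 3817, 998 and 2871 in the anlage arrays, and none was listed at 0. The uroplakins Upk1b, Upk2 and Upk3a differed by -0.51, -0.32 and -0.19 on the log2 scale, none of them past the threshold. Upk1a, below the filter and not tested, differed by -0.96, with the duct below all 3 anlage arrays. Of the rest, Foxa3 differed by -0.42 and Krt5 by 0.15, neither past the threshold. Krt14, Scgb1a1, Tff2 and Muc5ac, below the filter and not tested, differed by 0.48, 0.36, 0.13 and 0.10. For Krt14, Scgb1a1 and Muc5ac the duct lay above all 3 anlage arrays after normalization only. In deposited signal it lay below anlage array 1 for each: 191.38 against 244.71, 80.54 against 93.54 and 40.04 against 57.55. Summed signal of 6 stromal markers was 116620 in the duct against 97475, 102960 and 258080, and that of 6 leukocyte markers 2678 against 5896, 4328 and 3008.

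The rest of the ETS family gives the setting for these values. The platform table had probe sets with 1 symbol for 20 of 22 other ETS genes, and 19 were tested. Of these, 8 were higher and 11 lower in value in the duct, 2 lay above and 7 below all anlage arrays, and limma called 0 in either direction, with 0 at an unadjusted p under 0.05. Above all 3 anlage arrays lay 17.3% of all tested genes, and below all 3 lay 24.3%. The median difference of the 19 was -0.18, beside -0.06 over all tested genes. The signs are not firm: 8 of the 19 changed sign under at least 1 setting, and for 10 the probe sets of the gene disagreed in sign.

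The highest of the others was Elf1, a factor expressed widely and in lymphoid cells, at 13.01 in the duct and 12.59, 11.53 and 11.83 in the anlage arrays. Its difference was 1.03 ± 0.60 (SE; limma adjusted p = 0.9999), beside 3.01 ± 0.75 for Ehf, and the gap between the 2 was not tested. Elf2 followed with 0.79 ± 1.03 and Elk4, a partner of serum response factor, with 0.69 ± 0.46, and both had a negative value with the mean of all probe sets (-0.13 and -0.034). Elf2 differed by 1.502 without anlage array 1 and by 0.05 without anlage array 2, and Elk4 by 0.29 under scaling to a common median. Etv4 and Etv5 are targets of RET and FGF signalling at the ureteric tip. Etv4 differed by 0.23 ± 0.60, and by -0.062 without anlage array 3. Etv5 differed by -1.39 ± 0.95, its probe sets ranged from -1.39 to 0.33, and their mean differed by -0.33.

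At the lower end stood Erg, a factor of vascular endothelium, at 8.43 in the duct and 9.11, 10.92 and 10.10 in the anlage arrays (difference -1.62 ± 0.78, SE). The second probe set of Erg gave -0.19, and averaging both gave -0.90. The mean of the 4 tested endothelial markers was 9.08 against 9.74, 11.24 and 11.43. Cdh5 (9.86, 11.33 and 10.93 in the anlage) and Tek (9.83, 11.57 and 11.07) were highest in array 2, as was Erg. Kdr (9.91, 10.22 and 11.42) and Cd34 (9.37, 11.83 and 12.28) were highest in array 3, as was the mean. All 4 markers were lower in value in the duct, 2 of them below all 3 anlage arrays, against 24.3% of all tested genes. Of the 6 endothelial markers, summed signal was 2228 against 4368, 9801 and 11467, and none was listed at 0. Their part in the value of Erg was not tested. Etv2, which starts the endothelial lineage, differed by -1.08 ± 0.50, and Ets1, a factor of lymphocytes and vessels, by -1.07 ± 0.74, with its probe sets ranging from -1.75 to 0.31. Ets1 differed by -0.60 without anlage array 2, and Etv2 by -0.59 with the offset at the 50th percentile. None of these passed in limma (adjusted p = 0.9999 for each).

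**Figure D3:**
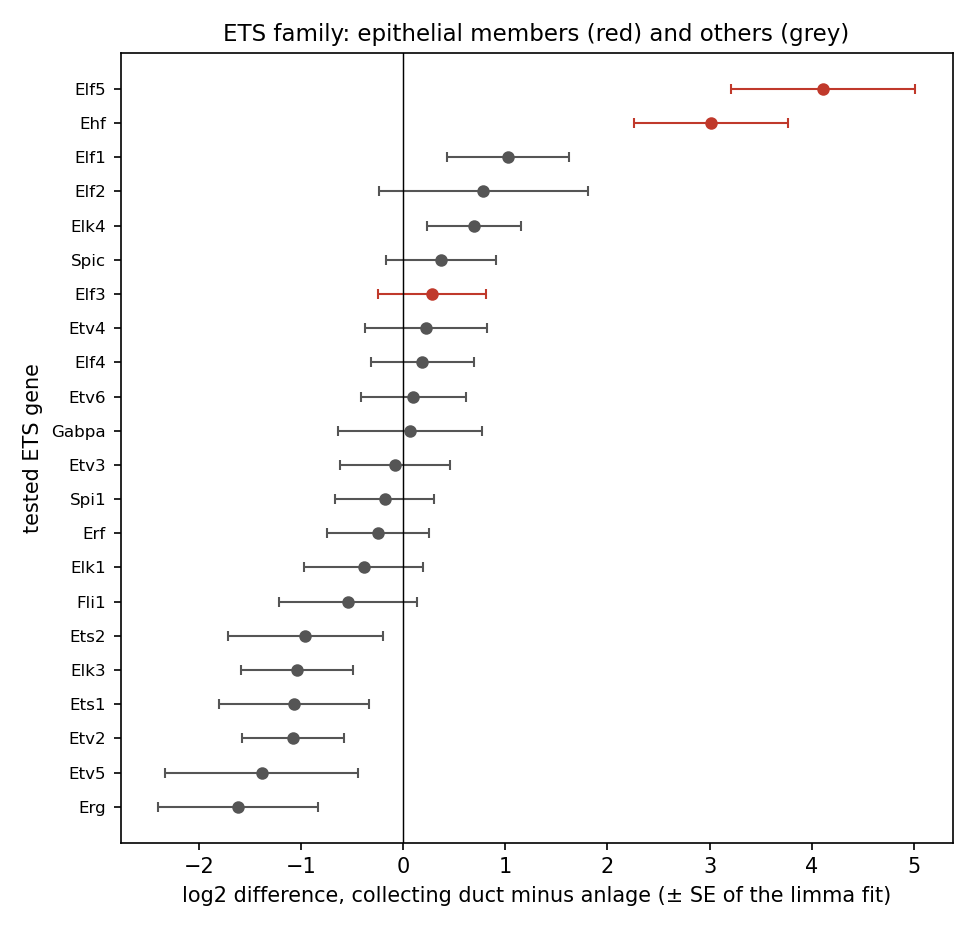
Log2 difference between the collecting duct array and the mean of the 3 anlage arrays (x axis) for the 22 tested ETS genes (y axis), with bars for the SE of the limma fit. Red marks Elf5, Ehf and Elf3 and grey the 19 others, the highest of which, Elf1, stands at 1.03 beside 3.01 for Ehf.

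Other transcription factors of collecting duct and ureteric epithelium were counted from a list of 22 genes, of which 17 were tested, 3 lay below the filter and 2 had no probe set with 1 symbol. The value in the duct was higher for 11 and lower for 6. Of these 17, 6 lay above and 1 below all anlage arrays, against 17.3% and 24.3% of all tested genes. The median difference of the 17 was 0.50, and limma called 0 in either direction. At an unadjusted limma p under 0.05, 2 were higher and 0 lower, against 1.18% and 2.23% of all tested genes. Gata3, which specifies the ureteric lineage, had a difference of 3.53 ± 0.84 (SE), and Klf5, a factor of proliferating epithelium, one of 2.25 ± 0.62, from 11.87 against 9.86, 9.01 and 9.99. Foxi1, a factor of intercalated cells, lay below the filter and was not tested, at 9.51 against 7.47, 7.87 and 7.25, a difference of 1.98. Foxa1, the next, a pioneer factor of endoderm-derived and urogenital epithelium, differed by 1.71 ± 1.37, its anlage values of 7.93, 7.20 and 10.85 lying on both sides of the collecting duct value of 10.37. Avpr2 and Aqp2, the vasopressin receptor and the water channel of principal cells, which have been linked to Elf5, differed by 1.79 ± 0.54 and 0.82 ± 0.51. Both lay above all 3 anlage arrays, and neither passed in limma (adjusted p = 0.9999).

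The genes nearest to each member in pattern were found from the distance between log2 profiles over the 4 arrays, each profile taken minus its own mean. With 4 arrays such likeness is only a description. For Elf5 the nearest of 12641 genes were Gata3 (distance 0.67), Wnt9b (0.77), A930017K11Rik (0.96), Ehf (1.03) and Scnn1g (1.11). Wnt9b, here by the brighter of its 2 probe sets (differences 3.50 and 0.25), encodes a ureteric ligand that acts on nephron progenitors. Scnn1g encodes a subunit of the epithelial sodium channel. For Ehf they were A930017K11Rik (0.41), Phlda2 (0.43), Wnt9b (0.47), Frk (0.55) and Plet1 (0.60), where Phlda2 is an imprinted growth regulator and Frk a tyrosine kinase of epithelia. Elf5 ranked 25 in the order of Ehf, and Ehf ranked 4 in that of Elf5. Elf3 ranked 4144 in the order of Elf5 and 4184 in that of Ehf, while in the order of Elf3 itself Elf5 ranked 12610 and Ehf 12483. The genes nearest to Elf3 were Gdf9, Hmgxb3, Naxd, Prelid1 and Sdhaf4, all nearly level across the arrays, with differences from 0.21 to 0.29.

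**Figure D4:**
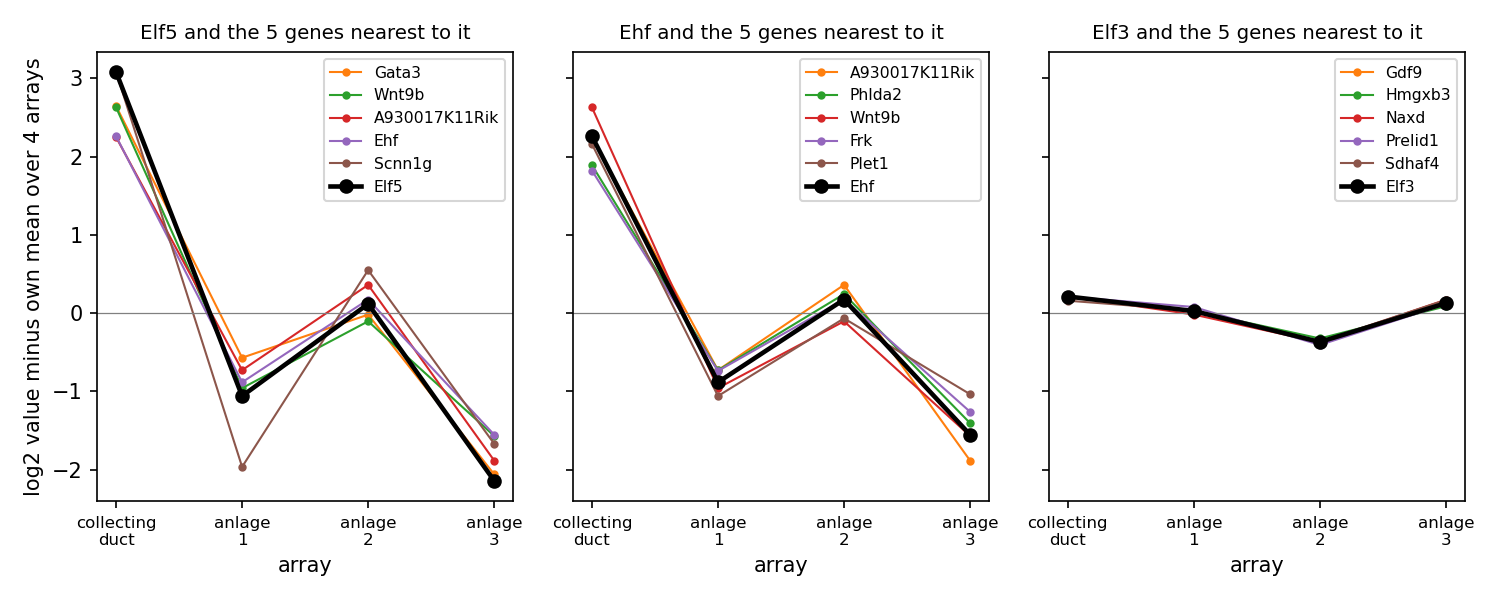
Log2 value minus the gene's own mean over the 4 arrays (y axis) in each array (x axis), for Elf5, Ehf and Elf3 in black and the 5 genes nearest to each in colour. Lines only join the points of 1 gene, since arrays have no order. Elf5 and Ehf and their nearest genes are high in the collecting duct array, and within the anlage Elf5 and Ehf are highest in array 2, while Elf3 and its nearest genes stay nearly level.

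Elf5 and Ehf lie next to each other on mouse chromosome 2 in RefSeq, with 0 protein-coding genes and 2 long noncoding RNAs between them. One of these, BC016548, was on the array and dim, at 8.50 in the duct and 8.28, 8.08 and 8.51 in the anlage arrays, below the filter. The 3 protein-coding genes on either side had differences between -0.83 and 0.34. Toward Ehf, Apip differed by 0.34 ± 0.59 (SE), Pdhx by -0.65 ± 0.68 and Cd44 by -0.05 ± 0.57. Toward Elf5, the catalase gene Cat differed by 0.06 ± 0.58, Abtb2 by -0.83 ± 0.59 and Nat10 by -0.16 ± 0.50. None passed in limma (adjusted p = 0.9999 for each). None of these 6 lay above all anlage arrays, and Abtb2 and Nat10 lay below all of them. Of all tested genes 17.3% lay above and 24.3% below, so for 6 genes such counts are near the share over all genes. On chromosome 1 Elf3 lies between Gpr37l1, which was below the filter and differed by 0.45, and Rnpep, which differed by 0.37 ± 0.53, both with the duct above all 3 anlage arrays. On chromosome 17 Spdef lies between Pacsin1, which differed by 0.28 ± 0.54, and Ilrun, below the filter, at 0.27.

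Across the 10 other settings each of the 4 members kept a positive difference. That of Elf5 ran from 2.95 to 4.48, that of Ehf from 1.97 to 3.34, that of Elf3 from 0.12 to 0.52 and that of Spdef from 0.45 to 1.89. Scaling to a common median moved the median of all tested genes from -0.06 to -0.24. Under that scaling Elf5 differed by 3.72, Ehf by 2.63, Elf3 by 0.29 and Spdef by 0.98, all above the median of the tested genes.

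**Figure D5:**
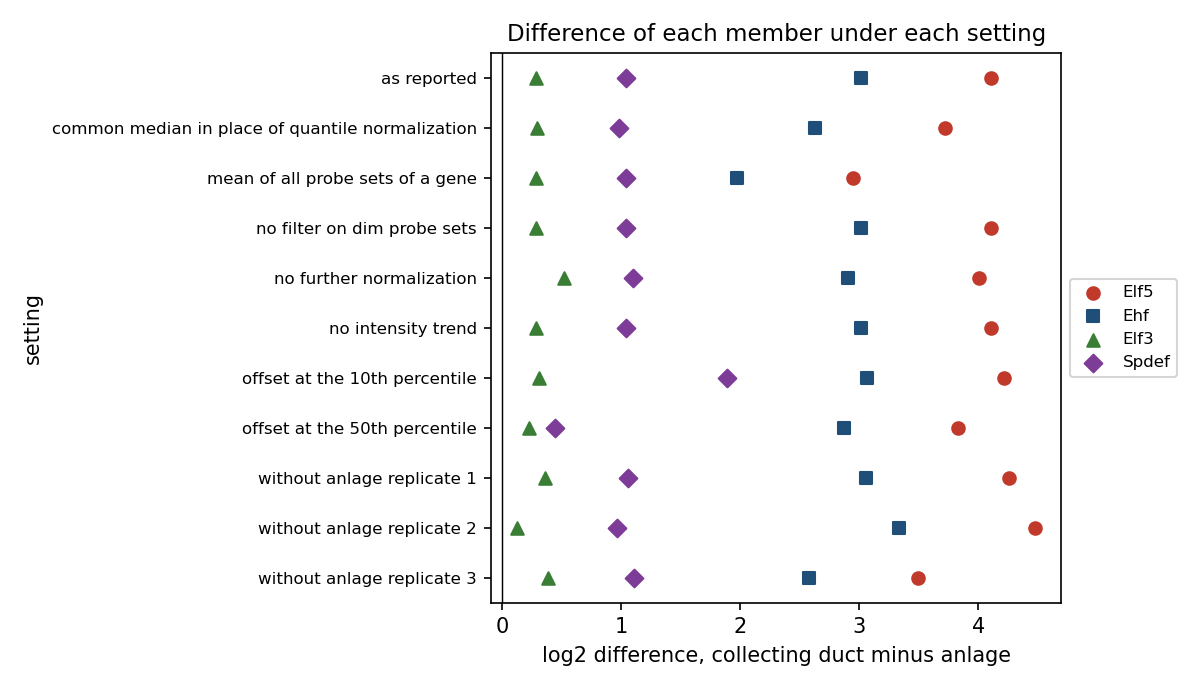
Log2 difference between the collecting duct array and the anlage mean (x axis) for each member under each processing setting (y axis). Each symbol is 1 value, with red circles for Elf5, blue squares for Ehf, green triangles for Elf3 and purple diamonds for Spdef. Elf5 stays between 2.95 and 4.48 and Ehf between 1.97 and 3.34, while Spdef moves from 0.45 to 1.89 with the offset.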

How the data were processed

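The deposited values were linear probe set intensity values made with GCOS, per the submitters' processing notes, which name no version. The trimmed mean (2% at each end) was 1500 in all 4 arrays. The arrays were quantile normalized, 109.6 (the 25th percentile) was added and log2 taken. Then 64 control probe sets were removed; of the other 45037, 34945 had 1 gene symbol, 932 several and 9160 none. Of several probe sets the brightest by mean stood for a gene. Genes with a mean under 8.416 (40th percentile) were not tested, leaving 12642 of 18193. The 2 structures were compared by limma 3.58.1 (R 4.3.3; intensity trend, two-sided, Benjamini-Hochberg, threshold 0.05), with 2 residual degrees of freedom; the lone duct array was taken to have the anlage's spread. The number of arrays limits the precision. Promoter letters came from RefSeq GRCm38.p6.

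Members and lists were chosen with earlier results of these data known. Besides the members, genes were named by rule: the 3 highest and 3 lowest other ETS genes, Etv4, Etv5, Erg and Ets1, the 3 transcription factors with the largest difference, Aqp2 as a segment marker, and the 5 genes nearest in pattern. Chromosomal neighbours, Avpr2, Calb1, Foxa1, the uroplakins and the other named markers of other epithelia were added after values were seen.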

Additional observations from a re-analysis of the deposited data

How the results depend on the processing

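All 4 members kept a positive difference in the 10 alternatives, and Elf3 and Ehf kept their side of the limma threshold. Elf5 passed only without anlage array 2 (4.48, adjusted p = 0.0304); leaving out each anlage array in turn gave 3.50 to 4.48 for Elf5, and 0 to 3 genes called higher and 0 to 11 called lower. Spdef, tested only with the filter removed (1.04, adjusted p = 0.99996), moved from 1.04 to 1.89 with the offset at the 10th percentile and to 0.45 at the 50th, since its signal is near the offset. Of 190 values for the 19 other ETS genes, 13 reversed. With the mean of all probe sets these were Elf2 (-0.13), Elk1 (0.31), Elk4 (-0.034), Erf (0.11), Etv3 (0.21) and Etv6 (-0.88); with no further normalization Etv3 (0.17) and Gabpa (-0.011); with a common median Etv6 (-0.054) and Gabpa (-0.28). Leaving out 1 anlage array reversed Etv3 and Gabpa (both without array 1, where another probe set stood for Etv3) and Etv4 (without array 3), the values ranging from -0.16 to 0.019 for Etv3, from -0.40 to 0.32 for Gabpa and from -0.062 to 0.38 for Etv4. Where probe sets disagreed, the cause was not tested. No paired analysis was possible because the groups share 1 replicate number only. Signals of Spdef and of the second Elf5 probe set lie below the filter, and without detection calls their distance from background is unknown.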
